A study of Rattus norvegicus with 5 samples.

Results

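Cholesterol handling in the fat around the pancreas was described through 32 genes of cholesterol synthesis, its feedback control, and sterol storage and efflux, out of 14217 genes that the array annotation names by 1 symbol. The genes were chosen by their role in the pathway, with earlier results of these data known. A probe set is a group of short probes for 1 transcript, and a gene was represented by its probe set with the highest mean over all arrays. Of the 32 genes, 30 were measured, all of them above the filter on dim probe sets, and Hmgcs1 and Npc1 were not analysed here. They comprise 17 measured synthesis genes, 5 genes of the control of SREBP, the transcription factor family that drives sterol synthesis when sterols run low, and 8 genes that belong to LXR, the oxysterol-sensing nuclear receptor, and to sterol storage and efflux.

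The tissue was mesenteric fat from male Wistar rats that were 7 weeks old when the diets began and were housed singly. A control set of 3 rats ate standard chow, in which fat gave 8% of calories, and is labelled lean. A second set of 2 rats ate a cafeteria diet, in which fat gave 66% of calories, and is labelled obese. Both diets lasted 30 days, and each array carried RNA of the whole tissue from an independent sample, so fewer cells of a type and less RNA per cell cannot be told apart in any value below.

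Cells make cholesterol from acetyl-CoA through mevalonate, farnesyl diphosphate, squalene and lanosterol. When sterols in the endoplasmic reticulum run low, Scap carries SREBP2 to the Golgi for cleavage, and the released factor switches on the enzymes of synthesis; Insig proteins hold Scap back when sterols are plentiful. When sterols accumulate, oxysterols activate the LXR receptors, which raise the efflux pumps Abca1 and Abcg1. Fat cells keep much of their cholesterol unesterified on the surface of the lipid droplet, and adipose tissue is a large body store of it.

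Markers of the tissue were as labelled, with adiponectin (Adipoq) at 12.94 to 13.28 log2 units and the droplet protein Plin1 at 11.61 to 12.23 on every array. The array of standard replicate 1 also held transcripts of pancreatic acinar cells, which make digestive enzymes. Over 9 acinar markers its score, the median over the list of a gene's log2 level minus that gene's mean of 5 arrays, was 3.21, against -1.22 to -0.81 on the other arrays. Array medians lay between 5.70 and 5.75, and arrays correlated pairwise at 0.987 to 0.994 across probe sets. Precision is limited by having only 2 cafeteria and 3 standard arrays.

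The synthesis genes had higher means in cafeteria fat for 16 of 17, with a median difference (cafeteria minus standard) of 0.25 on the log2 scale. Over all 14217 genes the median was 0.01, and 52.5% had the higher and 47.5% the lower mean in cafeteria fat. None of the 17 was called by limma after adjustment over all 21729 probe sets (smallest adjusted p = 0.281), and 0% of those probe sets were called. At an unadjusted p under 0.05 there were 2 higher, Fdft1 and Sc5d, and 0 lower, where 6.73% of all genes tested were higher and 6.88% lower. Both cafeteria arrays lay above all standard arrays for 4 of the 17 (Idi1, Fdft1, Hsd17b7 and Sc5d), a separation seen in 14.0% of all genes.

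The shift was uneven between the 2 cafeteria rats. Cafeteria replicate 2 held the highest value for 13 of the 17 genes, and standard replicate 1, the array with acinar transcripts, held the lowest for 10. The score of the synthesis list was 0.36 on cafeteria replicate 2 and -0.02 on cafeteria replicate 1, against -0.26, 0.05 and -0.13 on standard replicates 1, 2 and 3, so the 2 diets overlapped on it. The median difference was 0.46 with cafeteria replicate 1 left out and 0.08 with cafeteria replicate 2 left out, and leaving out standard replicates 1 and 2 in turn gave 0.16 and 0.37. On the same score, adipocyte markers were also highest on cafeteria replicate 2 and lowest on standard replicate 1, but the diets were apart. All 7 of 7 had higher means in cafeteria fat (median difference 0.33), with scores of 0.10 and 0.23 on the cafeteria arrays and -0.25, -0.11 and -0.02 on the standard arrays. Their summed level was 15.27 and 15.40 log2 units in cafeteria fat and 14.92 to 15.15 in standard fat. Of 4 fibroblast markers 3 had higher means in cafeteria fat (median difference 0.47), with scores of 0.15 and 0.41 on the cafeteria arrays and -0.22, -0.15 and -0.05 on the standard arrays, so that this list too was highest on cafeteria replicate 2 and lowest on standard replicate 1. Of 5 hepatocyte markers 2 were above the filter, and the list's summed level, nearly all of it albumin, was 10.98 and 13.13 in cafeteria fat and 12.88, 11.22 and 11.82 in standard fat, so it was high on cafeteria replicate 2 and on standard replicate 1. The part of these markers in the synthesis values was not tested.

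**Figure D1:**
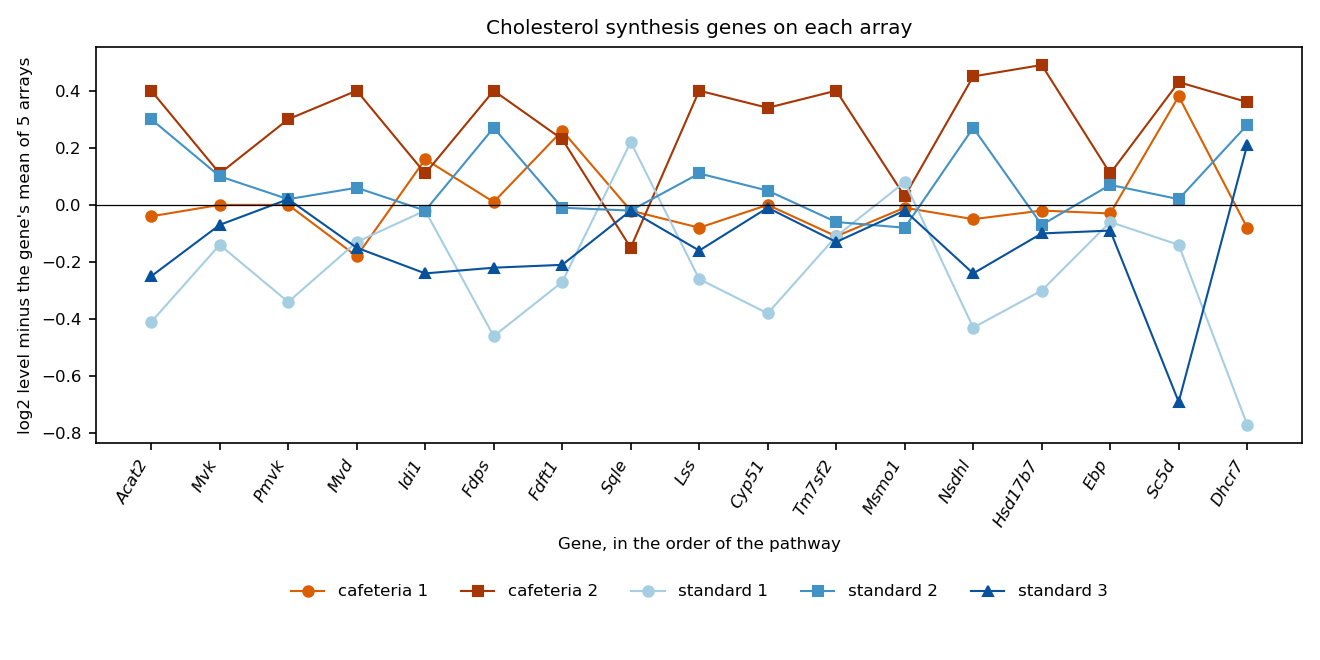
Log2 level minus the gene's mean of 5 arrays (vertical axis) for the 17 measured synthesis genes in pathway order (horizontal axis), with 1 line per array, orange and brown for the 2 cafeteria arrays and blues for the 3 standard arrays. The line of cafeteria replicate 2 is the highest for 13 of 17 genes, while that of cafeteria replicate 1 lies between -0.18 (Mvd) and 0.16 (Idi1) outside Fdft1 and Sc5d.

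Among the early enzymes, Acat2, the cytosolic thiolase that joins acetyl-CoA units, differed by 0.30 ± 0.27 (SE). Mvk, Pmvk and Mvd, which phosphorylate and decarboxylate mevalonate, differed by 0.09, 0.25 and 0.19, and Mvd changed sign, to -0.10, without cafeteria replicate 2. Idi1, the isomerase of isopentenyl diphosphate, read 8.41 and 8.37 in cafeteria fat and 8.24, 8.24 and 8.01 in standard fat. The 2 diets were apart for Idi1, by a gap of 0.13 between the nearest arrays, and the difference was 0.23 ± 0.09 (limma, adjusted p = 0.425).

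Fdps makes farnesyl diphosphate, the branch point to cholesterol and to protein prenylation. It read 9.48 and 9.86 in cafeteria fat against 9.00, 9.73 and 9.24 in standard fat. Standard replicate 2 lay above cafeteria replicate 1, so the diets overlapped, and the difference was 0.34 ± 0.26 (limma, adjusted p = 0.553).

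Fdft1, squalene synthase, takes the first step committed to sterols. It read 8.11 and 8.07 in cafeteria fat and 7.57, 7.84 and 7.63 in standard fat. Both cafeteria arrays were above every standard array. The difference was 0.41 ± 0.10, or 1.33-fold, with a 95% interval of 0.15 to 0.67 (limma, unadjusted p = 0.0104, adjusted p = 0.281), and it ranged from 0.36 to 0.49 when single arrays were left out. By exact permutation of the 5 samples (two-sided, 10 splits) p was 0.1, and no smaller p is possible with this design. A second Fdft1 probe set gave 0.28 ± 0.11, also with the diets apart.

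Sqle, the epoxidase that acts next and is a rate-limiting step after mevalonate, was the 1 synthesis gene with a lower mean in cafeteria fat. It read 6.44 and 6.30 against 6.68, 6.44 and 6.44, a difference of -0.15 ± 0.10 (limma, adjusted p = 0.536). Its highest value was on standard replicate 1, and without that array the difference was -0.07. So Fdft1 and Sqle, neighbours in the pathway, lay on opposite sides of 0; the difference between them was not tested.

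Lss, which closes squalene epoxide to lanosterol, differed by 0.26 ± 0.19, and its second probe set by 0.25. Cyp51, which removes a methyl group from lanosterol, read 9.21 and 9.55 in cafeteria fat and 8.83, 9.25 and 9.19 in standard fat. That is a difference of 0.29 ± 0.18 with overlapping diets (limma, adjusted p = 0.510). The second Cyp51 probe set gave 0.46 ± 0.22, with both cafeteria arrays above all standard arrays. Tm7sf2, a sterol reductase, differed by 0.24 and by -0.01 without cafeteria replicate 2.

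Msmo1, Nsdhl and Hsd17b7 act together to remove further methyl groups from the sterol ring. Msmo1 differed by 0.02 ± 0.07, Nsdhl by 0.33 ± 0.27 and Hsd17b7 by 0.40 ± 0.18. For Hsd17b7 the diets were apart by 0.06, but the difference was 0.65 with cafeteria replicate 1 left out and 0.14 with replicate 2 left out, and a second, dimmer probe set gave 0.15 ± 0.24 with overlapping diets.

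Of the last enzymes, Ebp, a sterol isomerase, differed by 0.07 ± 0.08. Sc5d, a desaturase, read 8.21 and 8.26 in cafeteria fat and 7.70, 7.86 and 7.15 in standard fat. Both cafeteria arrays lay above the standard arrays, by 0.35 or more, and standard replicate 3 was the lowest. The difference was 0.67 ± 0.23, or 1.59-fold (limma, unadjusted p = 0.0393, adjusted p = 0.365), and 0.46 without standard replicate 3. Further Sc5d probe sets gave 0.45 ± 0.26 with overlapping diets and 0.16 ± 0.13 with the diets apart.

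Dhcr7, which yields cholesterol itself, read 9.01 and 9.44 in cafeteria fat and 8.32, 9.37 and 9.30 in standard fat. Only standard replicate 1 was low. The difference of 0.23 ± 0.38 became -0.10 without that array, so its sign rested on the array with acinar transcripts.

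Of the 5 control genes, 1 had both cafeteria arrays above all standard arrays, a separation seen in 14.0% of all genes. Its difference was 0.82, and the other 4 lay within 0.15 of 0. None of the 5 was called by limma over all probe sets (smallest adjusted p = 0.302). At an unadjusted p under 0.05 there were 1 higher and 0 lower, where 6.73% of all genes tested were higher and 6.88% lower. Insig1, which anchors Scap in the endoplasmic reticulum and is itself a target of SREBP2, read 12.10 and 12.33 in cafeteria fat and 11.14, 11.76 and 11.29 in standard fat. Both cafeteria arrays were above every standard array, by 0.33 or more. The difference was 0.82 ± 0.22, or 1.76-fold, with a 95% interval of 0.24 to 1.39 (limma, unadjusted p = 0.0156, adjusted p = 0.302). It stayed between 0.69 and 1.00 when any single array was left out. By exact permutation p was 0.2, because the 2 lowest standard arrays against the rest make a split at least as uneven.

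Insig2, the paralogue that SREBP does not induce, read 8.50 and 8.53 in cafeteria fat and 8.63, 8.53 and 8.51 in standard fat. These 5 values lay within 0.13 of each other. The difference was -0.04 ± 0.06, with a 95% interval of -0.20 to 0.12, and its second probe set gave 0.05 ± 0.09. Scap read 8.24 and 7.99 against 7.94, 7.96 and 8.00, a difference of 0.15 ± 0.09 that was 0.02 without cafeteria replicate 1. Srebf2, which encodes SREBP2, differed by 0.01 ± 0.12, and Stard4, a carrier of sterols between membranes, by 0.08 ± 0.07, with -0.04 and -0.09 from its other probe sets. Over these 5 genes the median difference was 0.08, and it was between 0.02 and 0.13 without single arrays. The 95% interval of Srebf2 ran from -0.31 to 0.32, so a shift of the factor's own transcript of the size seen in most of the synthesis genes was within it.

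Promoters of 7 of the genes, 5 described above and Mylip and Ch25h described after them, are shown because the SREBP2 genes are known to be read through a sterol element that works with a neighbouring CCAAT box, the site of the factor NF-Y. RefSeq's table for the rat build GRCr8 held a promoter for 25 of the 30 measured genes, and the 250 bases before the start of each were searched on both strands. CCAAT was found in 17 of 25, that is in 11 of 14 synthesis genes, 3 of 4 control genes and 3 of 7 LXR, storage and efflux genes. Of all 33469 promoters in the table, 34.0% held it. The E-box CACGTG, to which SREBP can also bind, was in Insig1, Abca1, Sc5d and Scap, 4 of 25, and in 5.59% of all promoters. The sterol element TCACNCCAC was in 0 of 25 and in 0.974% of all promoters, and TCACACGAG, from the sterol element known in Fdps, was in Fdps and in 0.0986% of all promoters. These motifs do not overlap in the sequences below. Each sequence is the 200 bases before the start, read 5′ to 3′ on the gene's strand, with the motifs found on either strand in capitals, so that a CCAAT box on the other strand shows as its reverse complement.
Insig1, chr4:8057770-8057969, minus strand: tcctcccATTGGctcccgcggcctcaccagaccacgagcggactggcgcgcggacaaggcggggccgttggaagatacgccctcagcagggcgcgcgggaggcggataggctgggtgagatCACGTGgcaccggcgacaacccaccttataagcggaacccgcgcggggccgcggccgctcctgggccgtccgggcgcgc
Fdps, chr2:176804817-176805016, minus strand: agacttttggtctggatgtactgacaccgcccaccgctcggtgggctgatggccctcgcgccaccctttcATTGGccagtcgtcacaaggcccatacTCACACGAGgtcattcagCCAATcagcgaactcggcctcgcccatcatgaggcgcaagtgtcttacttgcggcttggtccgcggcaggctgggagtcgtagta
Hsd17b7, chr13:84722755-84722954, minus strand: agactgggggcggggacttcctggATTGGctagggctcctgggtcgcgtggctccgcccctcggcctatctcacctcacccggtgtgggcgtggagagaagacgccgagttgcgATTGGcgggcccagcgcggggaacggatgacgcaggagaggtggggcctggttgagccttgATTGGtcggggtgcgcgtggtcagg
Idi1, chr17:66547525-66547724, minus strand: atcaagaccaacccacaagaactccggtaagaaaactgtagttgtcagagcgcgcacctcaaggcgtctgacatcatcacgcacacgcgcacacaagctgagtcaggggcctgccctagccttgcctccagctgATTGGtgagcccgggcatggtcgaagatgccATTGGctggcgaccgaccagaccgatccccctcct
Sc5d, chr8:51538278-51538477, minus strand: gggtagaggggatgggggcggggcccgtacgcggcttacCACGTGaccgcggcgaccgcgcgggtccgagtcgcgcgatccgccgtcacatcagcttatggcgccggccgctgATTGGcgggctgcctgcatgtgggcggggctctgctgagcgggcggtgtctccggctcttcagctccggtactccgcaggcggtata
Mylip, chr17:19514472-19514671, minus strand: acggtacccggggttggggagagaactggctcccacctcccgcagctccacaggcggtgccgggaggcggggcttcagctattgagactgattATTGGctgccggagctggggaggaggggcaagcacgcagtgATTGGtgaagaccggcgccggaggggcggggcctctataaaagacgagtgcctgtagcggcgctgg
Ch25h, chr1:241429367-241429566, minus strand: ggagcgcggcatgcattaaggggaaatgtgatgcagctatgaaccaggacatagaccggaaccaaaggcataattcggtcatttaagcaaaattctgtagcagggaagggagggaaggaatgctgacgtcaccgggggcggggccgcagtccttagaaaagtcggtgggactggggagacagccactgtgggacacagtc

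Fdps holds TCACACGAG with a CCAAT box on each side. Hsd17b7 holds CCAAT 3 times, Idi1 and Mylip 2 times, Insig1 and Sc5d once, with a CACGTG elsewhere in the same stretch, and Ch25h not at all. A match is a description of letters and not of binding, and CCAAT also stands before Mylip, which had the lower mean in cafeteria fat.

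The LXR, storage and efflux genes did not move as 1 group. Of 8 measured, 3 had higher and 5 lower means in cafeteria fat, with a median of -0.18 that was -0.10 without standard replicate 1 and -0.26 without standard replicate 3. None was called by limma over all probe sets (smallest adjusted p = 0.151). At an unadjusted p under 0.05 there were 3 lower, Nr1h2, Mylip and Ch25h, and 0 higher, where 6.88% of all genes tested were lower and 6.73% higher. The same 3 had both cafeteria arrays below all standard arrays, as had 12.5% of all genes.

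Ch25h, the enzyme that makes the oxysterol 25-hydroxycholesterol, which blocks SREBP processing and activates LXR, read 5.96 on both cafeteria arrays and 7.23, 7.09 and 7.39 on the standard arrays. The nearest arrays of the 2 diets were 1.13 apart. The difference was -1.28 ± 0.10, that is 2.43-fold lower, with a 95% interval of -1.55 to -1.01 (limma, unadjusted p = 0.000111, adjusted p = 0.151). The 2 cafeteria values were identical, so the SE rests on the standard arrays and may be too small. It ranged from -1.35 to -1.21 without single arrays.

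Mylip, the ubiquitin ligase that LXR induces and that marks lipoprotein receptors for breakdown, read 8.08 and 7.69 in cafeteria fat and 8.54, 8.35 and 8.49 in standard fat. Both cafeteria arrays were below all standard arrays, replicate 2 by more. The difference was -0.57 ± 0.14, or 1.49-fold lower (limma, unadjusted p = 0.0115, adjusted p = 0.284), and it was -0.77 with cafeteria replicate 1 left out and -0.38 with replicate 2 left out.

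The 2 LXR receptors differed in sign. Nr1h2, LXR beta, found in most cells, read 8.21 and 8.35 in cafeteria fat and 8.63, 8.62 and 8.49 in standard fat, a difference of -0.30 ± 0.08 with the diets apart (limma, unadjusted p = 0.0149, adjusted p = 0.301). Its second probe set was below the filter and differed by 0.00, and the mean over its probe sets gave -0.15 ± 0.07. Nr1h3, LXR alpha, abundant in liver, fat and macrophages, read 8.05 and 8.21 against 7.83, 7.99 and 8.20, a difference of 0.12 ± 0.13 with overlapping diets.

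The 2 efflux pumps also lay on opposite sides. Abca1, which loads cholesterol onto lipid-poor apolipoprotein, read 7.56 and 7.37 in cafeteria fat and 7.91, 7.90 and 7.49 in standard fat. Standard replicate 3 fell between the cafeteria arrays, and the difference was -0.31 ± 0.16 (limma, adjusted p = 0.492). The other Abca1 probe sets gave -0.58 ± 0.15, -0.33 ± 0.17 and -0.29 ± 0.08, and on the first and last of these the diets were apart. Abcg1, which passes cholesterol to high-density lipoprotein, read 9.16 and 9.69 against 8.92, 8.91 and 9.29, a difference of 0.39 ± 0.21 with overlapping diets (limma, adjusted p = 0.497), and 0.12 without cafeteria replicate 2. The other Abcg1 probe sets gave 0.56 ± 0.14, with the diets apart, and 0.21 ± 0.13. Every probe set of Abca1 was thus lower and every probe set of Abcg1 higher on average, 4 and 3 in number, and the difference between the pumps was not tested.

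Of the storage and transport genes, Soat1, which esterifies cholesterol, differed by -0.05 ± 0.17, and Npc2, which hands cholesterol out of lysosomes, by 0.04 ± 0.09. Npc2 read 11.54 and 11.34 in cafeteria fat and 11.48, 11.41 and 11.31 in standard fat, so its arrays were interleaved.

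Macrophages express many of these genes, and their markers moved as well. All 8 of 8 macrophage markers, none below the filter, had lower means in cafeteria fat (median difference -0.29). Their summed level was 12.94 and 12.67 log2 units in cafeteria fat and 13.32, 13.23 and 12.83 in standard fat, so the diets overlapped. On the Abca1 probe set used, standard replicates 1 and 2 were likewise high and the other 3 arrays low, though on the 2 Abca1 probe sets with the diets apart standard replicate 3 lay above both cafeteria arrays. Ch25h read 7.23, 7.09 and 7.39 on standard replicates 1, 2 and 3, where the macrophage score was 0.29, 0.23 and -0.19. It read 5.96 on both cafeteria arrays, where that score was -0.03 and -0.35. Endothelial, T cell and mast cell markers were lower in cafeteria fat for 5 of 5, 6 of 6 and 5 of 5, with median differences of -0.47, -0.61 and -0.56. The endothelial score was -0.51 and -0.06 on the cafeteria arrays and 0.21, 0.16 and 0.19 on the standard arrays. The diets were apart on it, and overlapped on the T cell and mast cell scores. Smooth muscle and pericyte markers were lower for 5 of 5, with a median difference of -0.74, and standard replicate 3 stood apart on them, with a score of 1.57 against -0.91 to 0.35 on the other arrays. That array also held the lowest Sc5d value, and the LXR, storage and efflux median was -0.26 without it. The part of these cells in the LXR, storage and efflux values was not tested.

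**Figure D2:**
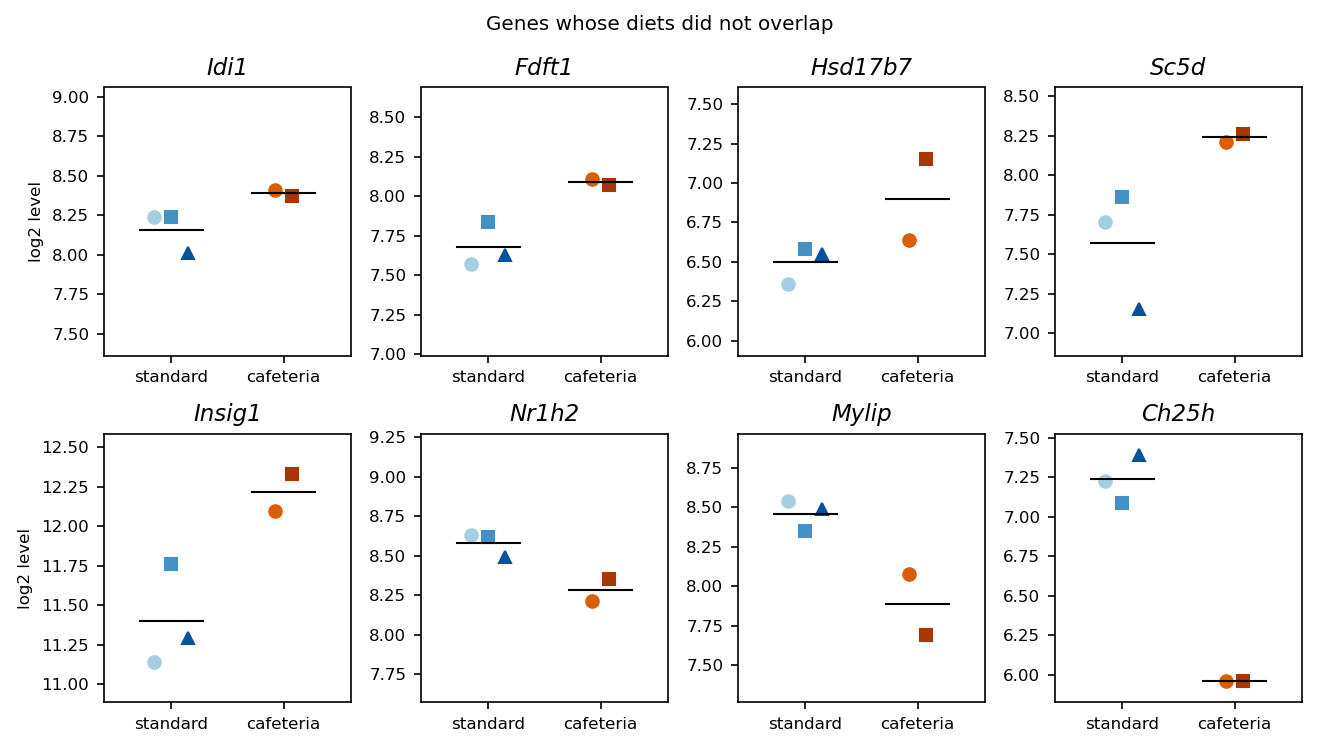
Log2 level (vertical axis) by diet (horizontal axis) for the 8 genes whose diets did not overlap; circles, squares and triangles are replicates 1, 2 and 3, the bar is the diet's mean, and every panel spans the same number of log2 units. The gap is widest for Ch25h, at 5.96 on both cafeteria arrays against 7.09 or more on the standard arrays, and narrowest for Hsd17b7 and Idi1.

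**Figure D3:**
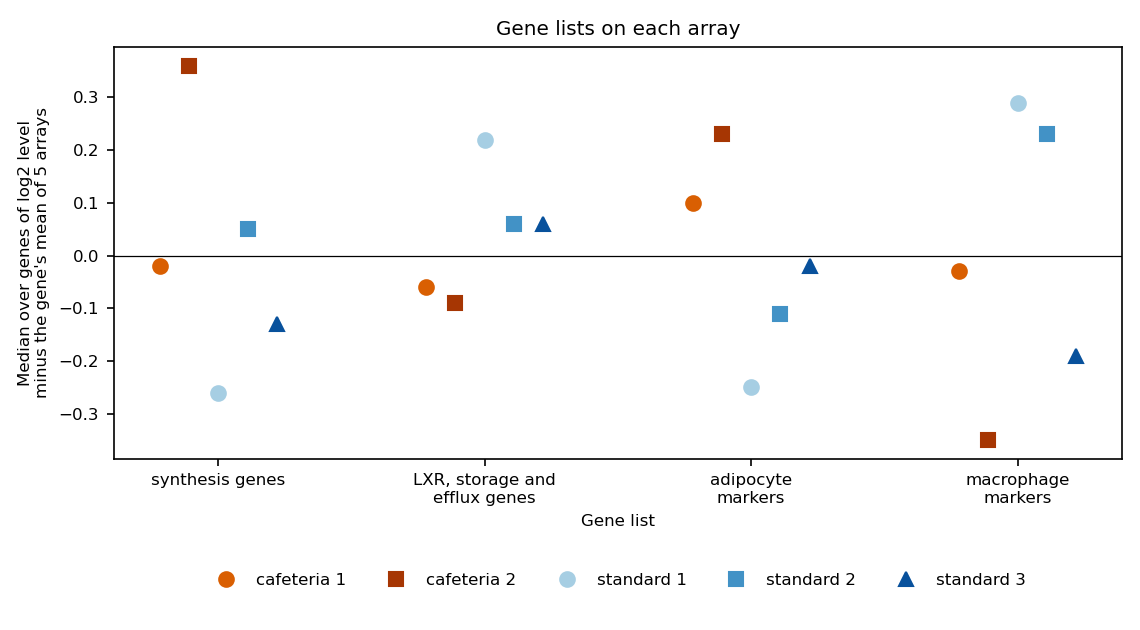
Median over a list of each gene's log2 level minus its mean of 5 arrays (vertical axis) for 2 of the gene groups and 2 marker lists (horizontal axis), with 1 point per array. Cafeteria replicate 2 is highest for the synthesis genes (0.36) and the adipocyte markers (0.23), and standard replicate 1 is lowest for both (-0.26 and -0.25) and highest for the macrophage markers (0.29).

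Of all 30 measured genes, 5 had both cafeteria arrays above and 3 had both below the standard arrays, shares near the 14.0% and 12.5% of all genes. An unadjusted p under 0.05 was found for 20.0% of them, against 13.6% of all genes tested, and 0 passed at an adjusted p of 0.05 in limma or without variance moderation, where 4 had an unadjusted p under 0.05. Among the further probe sets of these genes, of 19 above the filter, 16 had the sign of the one used and 3 did not.

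**Figure D4:**
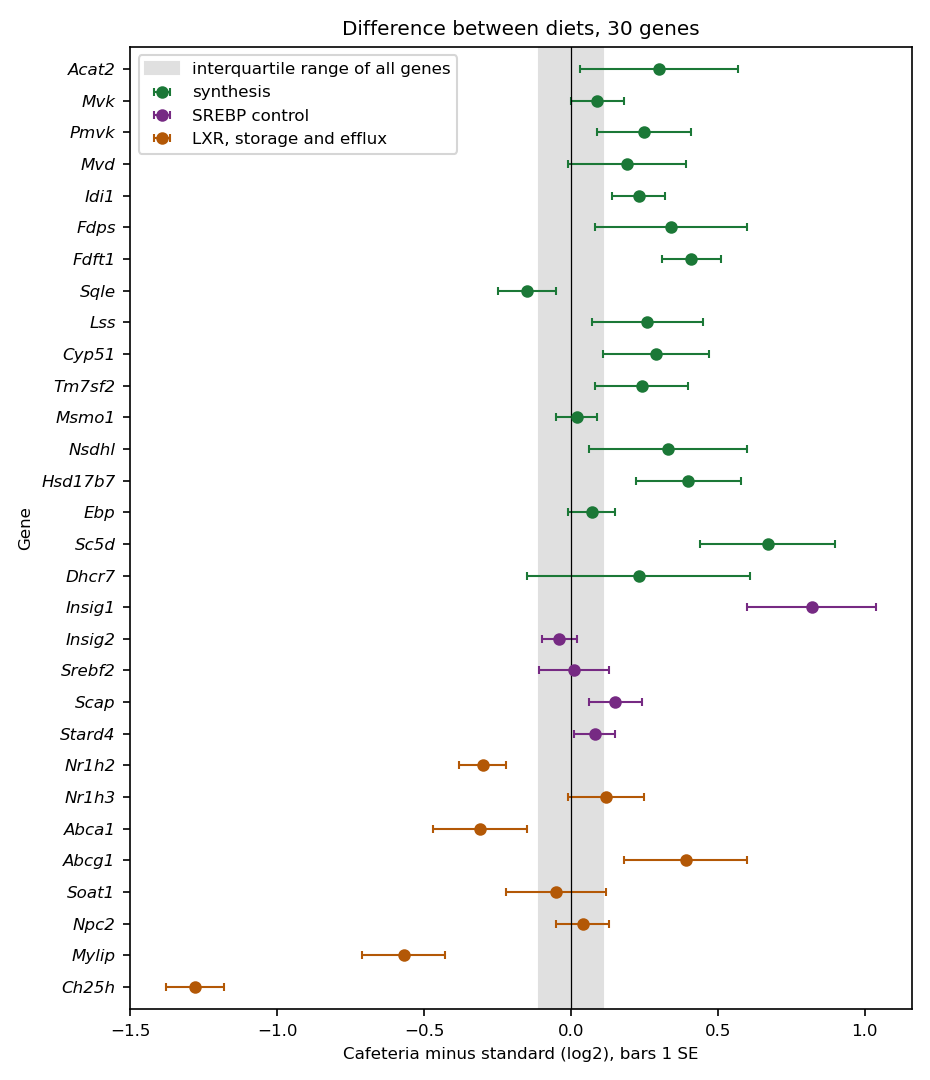
Cafeteria minus standard difference on the log2 scale (horizontal axis) with bars of 1 SE for the 30 measured genes (vertical axis), coloured by role, over a grey band for the interquartile range of all 14217 genes (-0.11 to 0.11). Synthesis genes lie to the right of 0 except Sqle, Insig1 lies at 0.82, and Ch25h at -1.28 and Mylip at -0.57 lie farthest to the left.

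Genes that bring lipoprotein cholesterol into cells or surround the pathway were taken from a list of 46 further measured genes. Of these, 18 had higher and 28 lower means in cafeteria fat, with a median of -0.02. None was called by limma over all probe sets (smallest adjusted p = 0.276), and 4 of the 41 above the filter had an unadjusted p under 0.05, of which 3 were higher (Vldlr, Lpl and Erg28) and 1 lower (Scarb1). That is 9.76% of them, against 13.6% of all genes tested. Both cafeteria arrays lay above all standard arrays for 10.9% of the 46 and below them for 8.70%, against 14.0% and 12.5% of all genes.

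The receptors Vldlr and Scarb1 lay on opposite sides. Vldlr, the receptor for very-low-density lipoprotein, which Mylip also marks for breakdown, read 8.47 and 8.91 in cafeteria fat and 8.05, 8.12 and 8.06 in standard fat. The diets were apart, and the difference was 0.62 ± 0.15, or 1.53-fold (limma, adjusted p = 0.280), and it was 0.84 with cafeteria replicate 1 left out and 0.39 with replicate 2 left out. Its other probe sets gave 0.76, 0.70 and 0.58, and the diets were apart on each of the 4. Scarb1, the receptor that takes cholesterol esters from high-density lipoprotein, read 8.67 and 8.98 in cafeteria fat and 9.63, 9.50 and 9.31 in standard fat. The difference was -0.65 ± 0.15, or 1.57-fold lower (limma, adjusted p = 0.276), and the second probe set gave -0.68 ± 0.09, again with the diets apart. Lrp1, a receptor for lipoprotein remnants, differed by -0.05 ± 0.11 with overlapping diets, and Lrp8, a receptor of the same family, was below the filter.

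Lpl, the lipase that frees fatty acids from lipoproteins, read 13.39 and 13.49 in cafeteria fat and 13.02, 13.23 and 13.18 in standard fat, a difference of 0.30 ± 0.09 with the diets apart (limma, adjusted p = 0.321). Erg28, a scaffold of the sterol demethylation enzymes, read 7.07 and 7.09 against 6.88, 6.97 and 6.84, a difference of 0.19 ± 0.06 with the diets apart (limma, adjusted p = 0.349). Srebf1, the paralogue of Srebf2 that drives fatty acid synthesis, read 10.05 and 10.40 against 10.05, 10.40 and 10.22, so its values spanned the same range in both diets. The fatty acid genes that it controls had lower means in cafeteria fat for 6 of 7, with a median of -0.39 that was -0.15 without standard replicate 2 and -0.74 without standard replicate 1. Elovl6, a fatty acid elongase, was at -1.15 ± 0.58. All 7 overlapped between diets, and none had an unadjusted p under 0.05.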

How the data were processed

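The authors deposited log2 values, 1 for each probe set on each array; RMA and the affy package, without versions, are named per the submitters' processing notes. RMA makes array distributions alike, which can hide a shift shared by most transcripts. The genome build of the array is not given in the sources used here.

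After leaving out 57 control probe sets, the 21729 of 31099 with a mean above the 30th percentile (4.28) were fitted with lmFit and eBayes of limma 3.58.1 (R 4.3.3), cafeteria minus standard, two-sided. P-values were adjusted by Benjamini-Hochberg over all probe sets. The fit had 3 residual degrees of freedom. P-values set a difference against the spread between these samples, moderated by limma with 1.5 prior degrees of freedom drawn from all probe sets fitted. Medians and counts of means cover all measured genes.

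Symbols came from GEO's platform annotation (20826 probe sets with 1 symbol, 436 with several, 9780 with none). Members and lists were chosen with earlier results of these data known. Values by array are given for genes with an unadjusted p under 0.05 or diets apart by 0.3, the 3 brightest of each role and paralogue pairs. A few more (Idi1 and Sqle, and Apoe and Lbr among the further genes) were added after their values were seen. In simulated data with independent noise, drawn from variances already moderated by limma, 84 of 100 probe sets changed by 1 log2 unit were called. That setting may overstate the share that would be called in the real data, where Ch25h at -1.28 was not called (limma, adjusted p = 0.151). Identical values made up 11.7% to 14.7% of probe sets between any 2 arrays, and no array was merged. Figures used matplotlib 3.10.9.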

Additional observations from a re-analysis of the deposited data

How the results depend on the processing

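No member passed an adjusted p of 0.05 under any of 15 alternatives (other filters, normalizations, variance models, array weights, single arrays left out, a replicate block and other ways to represent a gene), and 4 to 9 had an unadjusted p under 0.05. The median of the synthesis genes was 0.08 to 0.46, that of the control genes 0.02 to 0.13 and that of the LXR, storage and efflux genes -0.26 to -0.10 without single arrays. The control median was 0.14 with quantile normalization and 0.01 without probe sets that may cross-hybridize; the causes were not tested. Other filters and variance models do not alter a gene's difference, so its sign could not change under them. The replicate block gave the same differences as leaving out standard replicate 3. With all of these counted, 436 of 449 single-gene values under the alternatives kept their sign, and 21 of 30 genes did so throughout. For the others, leaving out single arrays gave -0.06 to 0.14 for Npc2, -0.10 to 0.48 for Mvd, -0.01 to 0.49 for Tm7sf2, -0.10 to 0.45 for Dhcr7, -0.09 to 0.07 for Srebf2, -0.17 to 0.09 for Soat1 and -0.01 to 0.07 for Msmo1. Mvd and Tm7sf2 changed sign without cafeteria replicate 2, Dhcr7, Srebf2 and Soat1 without standard replicate 1, Msmo1 without standard replicate 2, and Npc2 without cafeteria replicate 1 or, at -0.01, standard replicate 3. Srebf2 was -0.01 with array weights, Stard4 -0.09 without probe sets that may cross-hybridize, and Insig2 0.01 and Stard4 -0.01 as means over probe sets.

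Replicate numbers 1 and 2 occur in both diets, but nothing says that they pair rats. Deviations of same-numbered samples from their diet's mean correlated at 0.079 and -0.037. The deviations of the 2 cafeteria arrays mirror each other, so these correlations cannot show whether the numbers pair rats. With the replicate number as a block, 9 members had an unadjusted p under 0.05, the LXR, storage and efflux median was -0.26 and Npc2 was -0.01, and no member was called. Replicate number 3 occurs only in standard fat, so the block sets that array aside. Its differences are therefore those found without standard replicate 3, and the block is not a separate check of them.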

Other observations

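Among the further genes, Apoe, Pltp and Cyp27a1 were lowest on cafeteria replicate 2, while Vldlr, Lpl, Lpcat3 and Cd36 were highest on it. On that array the list that holds Apoe and Pltp scored -0.01, and the list that holds Cyp27a1 scored -0.05. Apoe, the apolipoprotein that macrophages and fat cells secrete, read 12.48 and 11.57 in cafeteria fat and 12.84, 12.63 and 12.32 in standard fat, a difference of -0.57 ± 0.32 that was -0.11 without cafeteria replicate 2. Pltp, which transfers phospholipids between lipoproteins, differed by -0.30 ± 0.18 and by -0.08 without that array. Cyp27a1, which makes the oxysterol of the mitochondrial route, differed by -0.33 ± 0.16 and by -0.10 without it. The macrophage score was also lowest on that array, at -0.35. So were the T cell (-0.70), mast cell (-0.79) and B cell (-1.08, from 2 of 4 markers) scores. Adipocyte, fibroblast and hepatocyte scores were highest there, at 0.23, 0.41 and 0.19. The part of these cells in these values was not tested. Lbr, a sterol reductase that also anchors chromatin to the nuclear envelope, read 7.29 and 7.41 in cafeteria fat and 8.03, 7.67 and 7.53 in standard fat. Both cafeteria arrays were below the standard arrays, as in 12.5% of all genes. The difference was -0.39 ± 0.17 (limma, adjusted p = 0.441). Its counterpart Tm7sf2 had the higher mean in cafeteria fat, but with overlapping diets and a difference of -0.01 without cafeteria replicate 2.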
